A study of Mus musculus with 4 samples.

Results

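Receptor tyrosine kinases were followed in ID8G cells and in GO2 cells. The set holds 37 receptor genes, chosen by name. They come from the ErbB, FGF receptor, PDGF receptor, Met, TAM, VEGF receptor, Tie, Alk, Trk and Ror families, with Musk counted beside Ror. The rest are the single-member groups of Insr, Ret, Ros1, Ryk, Ptk7, Styk1 and Lmtk2. The RefSeq accession of a probe assigned 58 of the 56605 probes of the array to these genes, and each of the 37 genes, among 22911 genes named in this way, had at least 1 probe. Eph receptors, discoidin domain receptors and Igf1r were not in the set.

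ID8G cells are ID8 mouse ovarian cancer cells that carry GFP. GO2 cells were derived from them by growth in C57BL/6 J mice, in which cells with GFP and without CD45 (Ptprc) were sorted from omental tumors, cultured, injected intraperitoneally again, and sorted in the same way from the omental tumors that followed. Both lines were cultured in the same DMEM with serum, insulin, transferrin and selenite, and total RNA was labeled with Cy3 and hybridized to 1-color Agilent mouse arrays, 2 arrays per line. GO2 is 1 selected line, so selection and other differences between 2 cultured lines cannot be told apart. The source labels of the GO2 samples speak of omental tumors 1 and 2, while the growth text describes cultured cells of both lines. The labels number the samples of each line but do not say whether they came from separate cultures, so p values measure only the spread between these samples, which may be technical. The comparison asks which genes differ between the line that disseminates more and its parent.

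Receptor tyrosine kinases are membrane proteins that bind a growth factor outside the cell, pair up, and phosphorylate each other on tyrosines inside it. Adaptor proteins dock on these tyrosines and pass the signal to the RAS-MAPK and PI3K pathways, while phosphatases, ubiquitin ligases and Sprouty proteins limit it. Several members, among them Ryk, Ptk7, Styk1 and Ror1, have kinase domains with little or no catalytic activity and act mainly through partners. In ovarian cancer, Egfr, Met, Axl and Ror1 are known for roles in adhesion, motility and survival, and PDGF receptors are known as receptors of stromal and mesenchymal cells.

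Levels are log2 intensities from which the 75th percentile of their own array was subtracted, so a level of 0 is the 75th percentile. Levels of different probes are not compared, except to pick the brightest probe of a gene and to sum lists of markers. Such sums are weighted toward the brightest probes. The scanner software marked 27502 to 28841 of the 56605 probes per array as well above background, no spot was saturated, and the lowest level with this mark lay between -3.85 and -3.53. The 4 arrays lay on 1 slide with the arrays of a line side by side, so position and cell line cannot be told apart. Of the spike-in controls, 7 were bright enough on every array, and on this scale they were 0.15 to 0.28 higher in the GO2 samples. Of the markers of the cells of origin, Wt1, Msln, Krt8 and Krt18 were well above background on all 4 arrays, while Epcam and Krt7 were on none.

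A probe was tested with limma where both arrays of at least 1 line were well above background, and was called where its p, adjusted by Benjamini-Hochberg over every tested probe, lay below 0.05 and its difference reached 2-fold. The 31 receptor probes that passed belong to 21 genes, which is 56.8% of the receptors against 57.7% of all named genes. The other 16 genes had no probe well above background on any array. Counting each gene by its tested probe with the highest level, 5 receptors were higher in GO2 cells, namely Pdgfra, Pdgfrb, Ror1, Met and Fgfr3, and 1 was lower, namely Kit. These are 23.8% and 4.76% of the tested receptors, where 5.98% of the 13215 tested genes were called higher and 3.94% lower. By probe, 6 receptor probes were called higher and 1 lower of 31, where 4.5% and 3.34% of all 28368 tested probes were. Both GO2 arrays lay above both ID8G arrays for 10 receptors and below them for 7, where this held for 39.3% and 39.1% of all tested genes, and the lines overlapped for 4. Pdgfrb passed only through its signal in GO2 cells, Kit and Insr only through ID8G cells, and the other 18 genes were well above background on all 4 arrays.

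**Figure D1:**
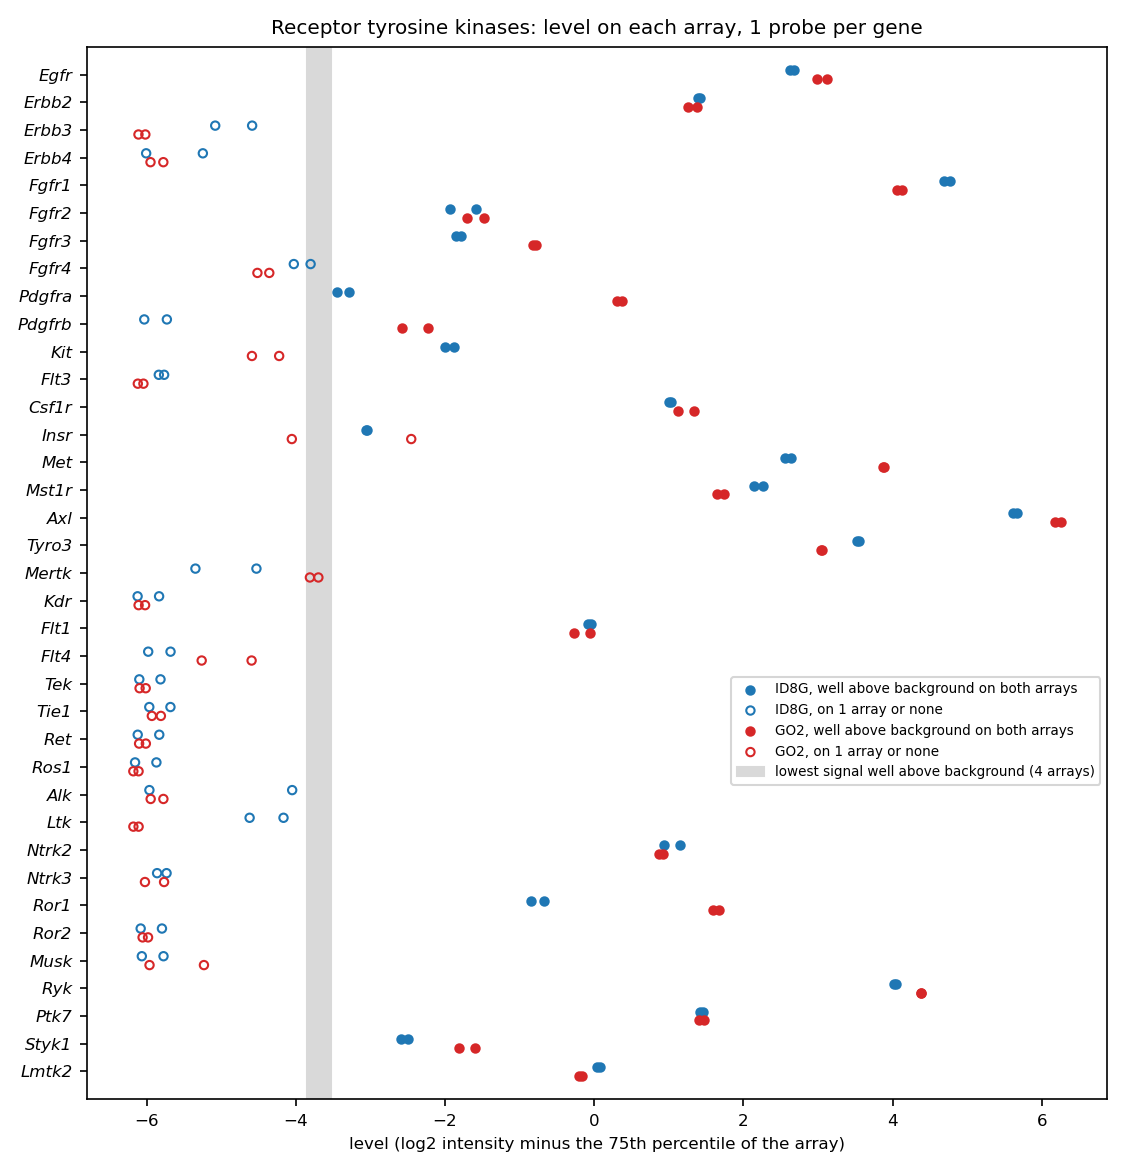
Level of each of the 37 receptors on each array, as log2 intensity relative to the 75th percentile of that array, with 1 probe per gene (the tested probe with the highest level, or the highest probe where none was tested). Each line has 2 points per gene, filled where both its arrays were well above background, and the grey band spans the lowest levels so marked on the 4 arrays, -3.85 to -3.53. Pdgfra and Ror1 are far apart between the lines with filled points in both, although those of Pdgfra in ID8G cells lie just above the grey band. Pdgfrb and Kit have open points in 1 line, so the width of their gaps is not measured, and 16 genes have open points only.

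Both receptors of platelet-derived growth factors were higher in GO2 cells, and Pdgfra had the largest measured difference of the receptors. Pdgfra, which binds the A, B and C chains of PDGF (probe A_51_P345649), was at -3.44 and -3.28 on the ID8G arrays and at 0.31 and 0.37 on the GO2 arrays. The groups did not overlap, and the difference of 3.70 on the log2 scale (standard error 0.08, limma adjusted p = 0.000208) corresponds to 12.98-fold. The ID8G levels of Pdgfra lay close to the lowest levels marked well above background on these 2 arrays, -3.53 and -3.82. The size of the fold therefore depends on dim values. Pdgfrb, the receptor for the B and D chains (A_51_P150964), was at -5.73 and -6.03 in ID8G cells, not well above background on either array, and at -2.58 and -2.23 in GO2 cells, well above background on both. Pdgfrb in GO2 cells therefore exceeded ID8G cells by at least 2.42-fold. A limma fit with ID8G levels raised to this floor gave a difference of 1.27 (adjusted p = 0.00751). Both ID8G values in that fit are cut-offs of the arrays, so its p does not measure the spread of Pdgfrb in ID8G cells. The fit without the floor, through which it was called, gave 3.47 (adjusted p = 0.000788), but Pdgfrb entered it only through the line in which it is high. The measured means were -5.88 ± 0.21 and -2.40 ± 0.25 (SD, n = 2 each), but the lower one is no measured level. With normexp background correction the differences were 2.75 for Pdgfra and 1.45 for Pdgfrb, and both were still called.

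Kit, the receptor for stem cell factor, moved the other way. Its probe (A_66_P128434) was at -2.003 and -1.878 in ID8G cells and at -4.22 and -4.59 in GO2 cells, where neither array was well above background. It was therefore at least 3.65-fold lower in GO2 cells. A limma fit with GO2 levels raised to this floor gave a difference of -1.87 (adjusted p = 0.00036). Both GO2 values in that fit are cut-offs of the arrays, so its p does not measure the spread of Kit in GO2 cells. The fit without the floor, through which it was called, gave -2.46 (adjusted p = 0.0012), but Kit entered it only through the line in which it is high. With normexp correction its difference was -1.13, still called. Kit and Pdgfra are neighbors on mouse chromosome 5, with Kdr, a VEGF receptor, next to Kit. Kdr was not well above background on any array, with levels from -6.12 to -5.83. Among the 5 protein-coding genes on the other side of Pdgfra and the 5 beyond Kdr, 6 were tested. They differed by -0.35 (Chic2) to 0.49 (Srd5a3), so none of these tested neighbors was called.

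Ror1, a receptor that binds Wnt5a and is best known from embryonic tissue and tumors, was at -0.84 and -0.67 in ID8G cells and at 1.67 and 1.60 in GO2 cells (A_55_P2805819). The difference was 2.39 (standard error 0.08, adjusted p = 0.000413), or 5.23-fold, and the groups did not overlap. Its relative Ror2 was not well above background on any array, with levels from -6.08 to -5.79. Musk, the muscle receptor related to both, was likewise below this mark by both of its probes.

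Met, the receptor for hepatocyte growth factor, was measured by 2 probes that gave the same picture. The brighter one (A_52_P656418) was at 2.64 and 2.56 in ID8G cells and at 3.89 and 3.87 in GO2 cells, a difference of 1.28 (standard error 0.06, adjusted p = 0.000635). The other probe (A_55_P2830865) differed by 1.29, and both were called. Mst1r, the second member of the Met family and the receptor for macrophage-stimulating protein, was at 2.14 and 2.26 in ID8G cells and at 1.64 and 1.74 in GO2 cells. Its difference of -0.51 (standard error 0.07, adjusted p = 0.011) was under 2-fold and its groups did not overlap, so the members of this family differed in opposite directions.

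The FGF receptors were divided as well. Fgfr3 (A_55_P1996578) was at -1.85 and -1.78 in ID8G cells and at -0.78 and -0.82 in GO2 cells, a difference of 1.01 (standard error 0.06, adjusted p = 0.0011) that lies just past the 2-fold threshold. It fell below it with median centering (0.98), spike-in scaling (0.81) and normexp correction (0.83), and without ID8G replicate 1 (0.98) or GO2 replicate 1 (0.99). Its second probe was not well above background on any array. Fgfr1, measured by 4 tested probes, was at 4.69 and 4.77 in ID8G cells and at 4.06 and 4.13 in GO2 cells by its brightest probe (A_55_P2057777), a difference of -0.64 (standard error 0.06, adjusted p = 0.0041). Its other 3 tested probes gave differences from -0.77 to -0.56, of which the dimmest overlapped between the lines, and none of the 4 reached 2-fold. Fgfr2 was at -1.93 and -1.59 in ID8G cells and at -1.48 and -1.70 in GO2 cells, with overlapping groups and an interval of the difference from -0.24 to 0.57. Fgfr4 was not well above background on any array.

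**Figure D2:**
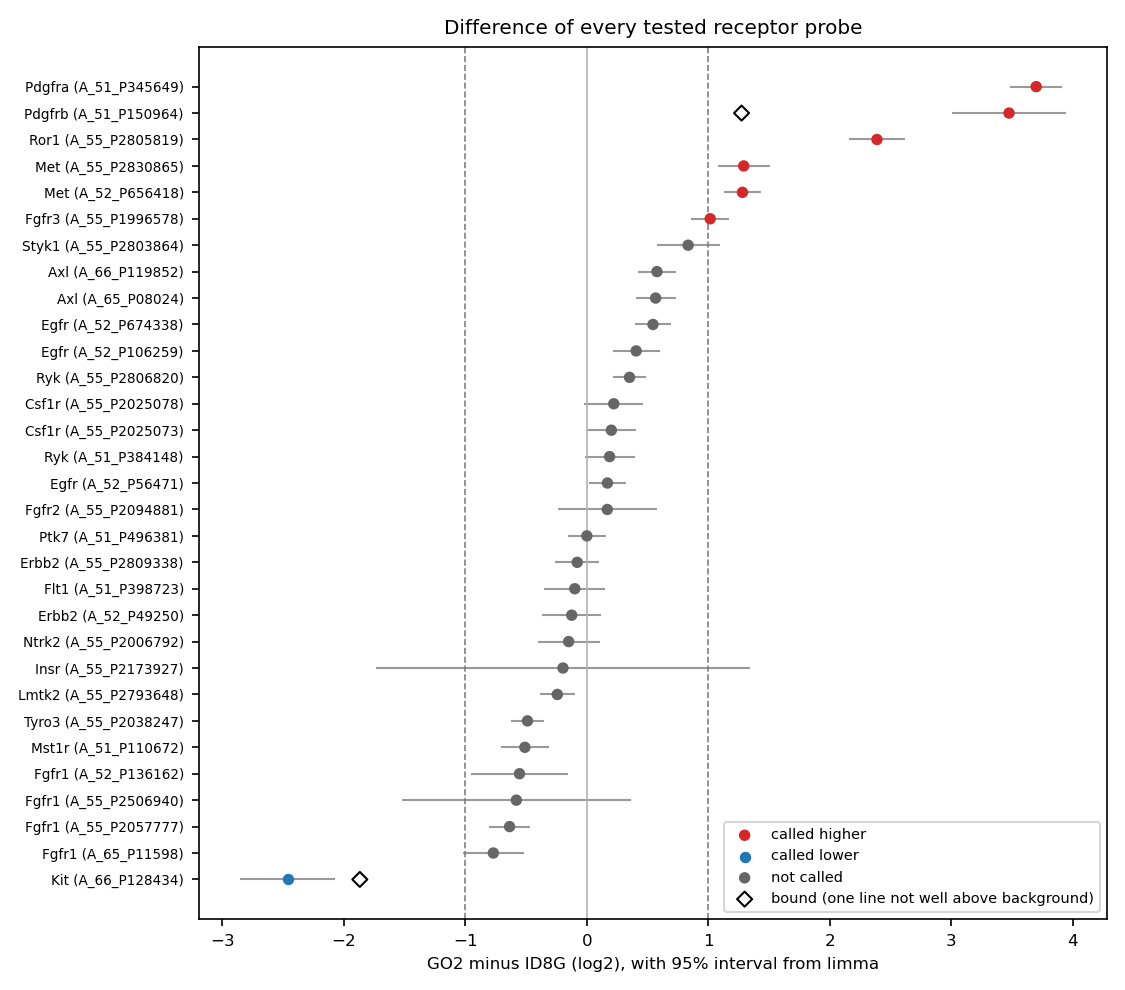
Difference between GO2 and ID8G cells (log2) for each of the 31 tested receptor probes, with the 95% interval from limma and dashed lines at the 2-fold threshold. Red and blue points were called, and open diamonds give the bound for Pdgfrb (1.27) and Kit (-1.87), of which 1 line was not well above background. The tested probes of Met (1.28 and 1.29) and of Axl (0.58 and 0.57) lie close together, while those of Egfr (0.17 to 0.54) and of Ryk (0.19 and 0.35) lie further apart.

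For 4 of the called receptors, the sequence before the transcription start is shown because the calls run in both directions among them. Given are the 250 bases before the first start listed in RefSeq (build GRCm38.p6), each on the plus strand of the gene, with 5 short motifs in capitals on either strand. The motifs searched were the GC box (GGGCGG), the TATA box (TATAAA), the CCAAT box (CCAAT), an E-box (CACGTG) and the AP-1 motif (TGANTCA). No match overlapped another in these sequences. Of the 37 receptors, 29 had an entry in the table, and Pdgfrb was not among them.
Pdgfra, chr5:75152001-75152250: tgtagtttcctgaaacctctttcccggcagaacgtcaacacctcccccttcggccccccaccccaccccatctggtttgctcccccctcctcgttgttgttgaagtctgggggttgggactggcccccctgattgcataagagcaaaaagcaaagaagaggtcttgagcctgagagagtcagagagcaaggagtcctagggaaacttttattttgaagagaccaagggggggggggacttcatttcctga
Ror1, chr4:100095541-100095790: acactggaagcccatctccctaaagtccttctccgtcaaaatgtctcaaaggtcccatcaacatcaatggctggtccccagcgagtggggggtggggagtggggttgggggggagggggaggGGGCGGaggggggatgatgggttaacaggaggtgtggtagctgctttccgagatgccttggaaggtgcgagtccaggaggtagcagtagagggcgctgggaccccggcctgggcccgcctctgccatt
Met, chr6:17463707-17463956: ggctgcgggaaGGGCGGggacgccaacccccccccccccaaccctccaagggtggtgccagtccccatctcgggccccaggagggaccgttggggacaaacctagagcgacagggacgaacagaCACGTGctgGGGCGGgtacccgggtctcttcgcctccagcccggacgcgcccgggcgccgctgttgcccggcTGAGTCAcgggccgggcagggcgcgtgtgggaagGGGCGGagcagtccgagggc
Kit, chr5:75574737-75574986: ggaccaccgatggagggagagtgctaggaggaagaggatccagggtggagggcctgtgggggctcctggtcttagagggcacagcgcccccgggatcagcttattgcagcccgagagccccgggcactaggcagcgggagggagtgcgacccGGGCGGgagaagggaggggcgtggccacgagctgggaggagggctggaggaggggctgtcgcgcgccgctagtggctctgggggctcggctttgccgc

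The promoter of Met held 3 GC boxes, an E-box and an AP-1 motif, with 24 CpG dinucleotides and a GC content of 74.0%. That of Pdgfra held none of the 5 motifs, with 4 CpG dinucleotides and 54.4% GC. Those of Ror1 and Kit held 1 GC box each, with 8 and 17 CpG dinucleotides. Over all 32851 listed promoters, 32.7% held a GC box, 12.4% a TATA box, 33.8% a CCAAT box, 6.02% an E-box and 6.75% an AP-1 motif. Each receptor was counted by its first listed promoter. Over the first listed promoters of all 27025 genes, these shares were 32.9%, 13%, 34.5%, 6.05% and 6.87% in the same order. Among the receptors, a GC box was found before 11 of 16 tested genes and before 7 of 13 genes that were not tested (68.8% and 53.8%). A CCAAT box was found before 18.8% and 7.69% of them, a TATA box before 18.8% of the tested genes and 0 of the others, an E-box before 6.25% and 0, and an AP-1 motif before 6.25% and 7.69%. The median GC content was 63.4% for tested and 61.6% for other receptors, 52.4% for all listed promoters and 52.0% for the first listed one of every gene. A match or its absence describes these letters only.

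The TAM receptors Axl, Tyro3 and Mertk damp innate immune signaling. All bind Gas6, while protein S is a ligand of Tyro3 and Mertk. Axl and Tyro3 also differed in opposite directions. Axl was at 5.61 and 5.66 in ID8G cells and at 6.18 and 6.25 in GO2 cells (A_66_P119852), a difference of 0.58 (standard error 0.06, adjusted p = 0.0048). Tyro3 was at 3.52 and 3.55 in ID8G cells and at 3.04 and 3.05 in GO2 cells (A_55_P2038247), a difference of -0.49 (standard error 0.05, adjusted p = 0.0051). By these probes the groups of Axl and of Tyro3 did not overlap, and neither difference reached 2-fold. The second probe of Tyro3 (A_52_P411629) was not well above background on any array and was not tested. Its levels ran from -5.90 to -4.84 and overlapped between the lines, so the decrease of Tyro3 rests on 1 probe. Mertk was not well above background on any array, with levels of -5.34 and -4.53 in ID8G cells and of -3.81 and -3.70 in GO2 cells, and was not tested.

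In the ErbB family, Egfr was at 2.62 and 2.68 in ID8G cells and at 3.12 and 2.99 in GO2 cells (A_52_P106259), a difference of 0.41 (standard error 0.07, adjusted p = 0.0186). Its other probes gave 0.54 (adjusted p = 0.0045) and 0.17 (adjusted p = 0.0828), and the intervals of these 2 probes did not overlap. With spike-in scaling the 3 probes gave 0.20 (adjusted p = 0.229), 0.34 (adjusted p = 0.051) and -0.04 (adjusted p = 0.82), so none of them passed the p threshold. Erbb2, the co-receptor that binds no ligand of its own, was at 1.42 and 1.39 in ID8G cells and at 1.26 and 1.38 in GO2 cells, and the interval of its difference ran from -0.26 to 0.10. Erbb3 and Erbb4 were not well above background on any array.

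Csf1r, the receptor for macrophage colony-stimulating factor, was well above background in both lines by both of its probes. It was at 1.029 and 0.997 in ID8G cells and at 1.34 and 1.13 in GO2 cells (A_55_P2025078), a difference of 0.22 with an interval from -0.02 to 0.46. Of the 12 macrophage markers examined, 9 were not well above background on any array, among them Ptprc, Adgre1, Lyz2, Tyrobp and C1qa, genes typical of macrophages. The other 3, Itgam, Cd14 and Cd68, were well above background on all 4 arrays by their brightest probe. The second probe of Itgam (A_55_P1977926) was so marked on 1 GO2 array only, and that of Cd68 (A_51_P120470) on 1 array of each line. The summed level of the list, as multiples of the 75th percentile, was 20.4 to 23.2 on the ID8G arrays and 19.2 to 19.7 on the GO2 arrays. Most of each sum came from 1 probe of Itgam (A_55_P1977934), at 4.18 and 4.39 in ID8G cells and at 4.13 and 4.17 in GO2 cells. The second Itgam probe was at -3.63 and -3.93 in ID8G cells and at -3.56 and -3.32 in GO2 cells. Flt3, the related receptor of blood progenitors, was not well above background on any array.

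The vascular receptors were largely below background. Kdr, Flt4, Tek and Tie1 had no array well above it. The same held for 5 of 8 endothelial markers, namely Cdh5, Cldn5, Emcn, Erg and Vwf. The remaining markers did give signal, Esam and Pecam1 in both lines and Robo4 in ID8G cells only. Esam was at 1.27 and 1.45 in ID8G cells and at 0.63 and 0.73 in GO2 cells. Its difference of -0.68 (limma adjusted p = 0.0087) was under 2-fold. Pecam1 was dim, at -3.14 and -3.34 in ID8G cells and at -3.15 and -3.17 in GO2 cells. Flt1, a VEGF receptor, was detected, at -0.04 and -0.08 in ID8G cells and at -0.27 and -0.05 in GO2 cells, with overlapping groups and an interval of the difference from -0.35 to 0.15. The neurotrophin receptor Ntrk2 depended on the probe. The probe A_55_P2006792 was at 1.16 and 0.94 in ID8G cells and at 0.92 and 0.87 in GO2 cells (difference -0.15, interval -0.40 to 0.10), while A_51_P393454, which stands for another RefSeq transcript, was not well above background on any array. Ntrk3, Ret, Ros1, Alk and Ltk were not well above background on any array. Without the filter on dim probes, Ltk was called lower in GO2 cells, although both lines lay below this mark.

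Among the receptors with little or no kinase activity of their own, Styk1 was at -2.49 and -2.59 in ID8G cells and at -1.60 and -1.81 in GO2 cells (A_55_P2803864), a difference of 0.83 (standard error 0.09, adjusted p = 0.0064) under the 2-fold threshold. Ryk, a Wnt receptor, was at 4.02 and 4.04 against 4.39 and 4.38, a difference of 0.35 (adjusted p = 0.0114) that was 0.14 (adjusted p = 0.359) with spike-in scaling. Ptk7, a regulator of planar cell polarity, was at 1.46 and 1.42 against 1.48 and 1.40, and the interval of its difference ran from -0.16 to 0.16. Lmtk2, a membrane kinase of endosomes, was at 0.04 and 0.07 against -0.17 and -0.21, a difference of -0.24 (adjusted p = 0.0314). The insulin receptor Insr was at -3.06 and -3.05 in ID8G cells and at -4.05 and -2.45 in GO2 cells, where only 1 array was well above background, and its interval from -1.73 to 1.34 leaves its difference undetermined. It was 0.60 without GO2 replicate 1 and -0.998 without GO2 replicate 2, so 1 array decided its direction. Over the 15 tested receptors that were not called, 4 had a positive and 4 a negative difference at an adjusted p below 0.05, and 7 had neither. This split was 2 and 4 with spike-in scaling, 2 and 1 without the filter on dim probes, and 4 and 3 with the replicate block. It was 5 and 4 with the intensity trend and 0 and 0 with the methods' t-test. The split also changed with each array left out. In all, 14 of the 21 tested receptors (66.7%) passed this p threshold regardless of fold, where 41% of all tested genes did. The median absolute difference was 0.49 for the tested receptors and 0.21 for all tested genes.

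Genes that act with the receptors were examined in 4 lists, counted in the same way. Of 33 tested ligand genes, 8 were higher and 6 lower (24.2% and 18.2%, against 5.98% and 3.94% of all tested genes), and their median difference was -0.24. The largest increases were in Fgf5, a fibroblast growth factor, at 3.05, and Wnt5a at 2.56. Ptn, a ligand of Alk and of heparan sulfate receptors, differed by 2.33, but its ID8G level was not well above background, which leaves at least 1.12-fold. The largest decreases were in Artn, a ligand of the Ret system, at -2.45, Areg, a ligand of Egfr, at -2.06, and Il34, a ligand of Csf1r, at -1.35. The limma adjusted p values of these 6 ligands lie between 0.000230 and 0.00128. Ptn, however, entered the fit only through GO2 cells, in which it is high, and its bound is under 2-fold. With dim levels raised to the floor, 14 genes of the 4 lists were called higher and 9 lower, against 15 and 10 without it.

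Of 12 tested co-receptor genes, 2 were higher, the heparan sulfate proteoglycans Sdc2 (1.81) and Gpc1 (1.02), and 0 were called lower by limma, with 2 lower at an unadjusted p below 0.05. Of 31 tested adaptors and effectors, 3 were higher, namely the insulin receptor substrate Irs1 (2.06), Grb14, an adaptor that inhibits the insulin receptor (1.38), and Pik3r1, the regulatory subunit of PI3K (1.27). In this list 1 gene was lower, Dok2, an adaptor that dampens signaling (-2.13). Of 26 tested negative regulators, 2 were higher and 3 lower. Spry1, a Sprouty inhibitor of RAS-MAPK signaling, differed by 1.71 and Sh3kbp1, an adaptor in receptor endocytosis, by 1.23, while the phosphatases Dusp4 (-1.33) and Ptprb (-1.26) and Lrig3 (-1.13) were lower. Median differences of these 3 lists were 0.10, 0.01 and -0.12. The members that were called in the list of negative regulators therefore include increases and decreases.

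**Figure D3:**
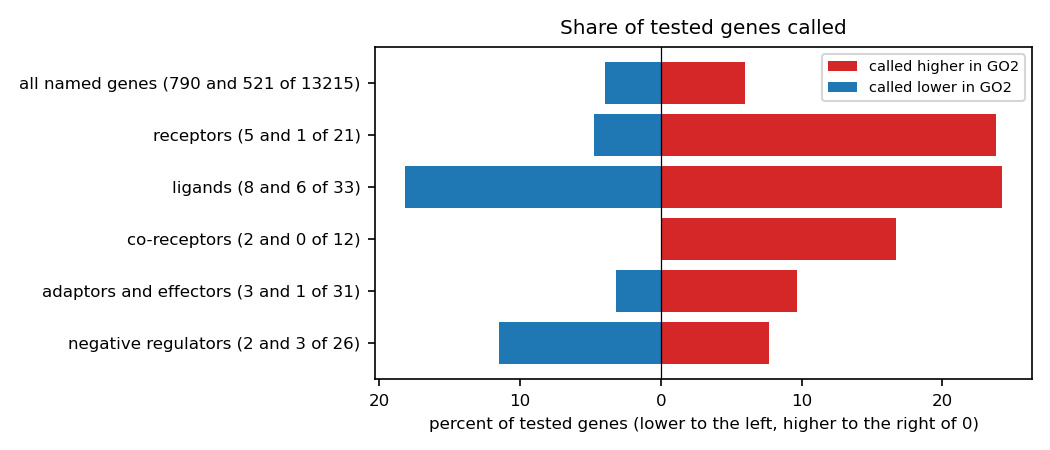
Percent of tested genes called higher (right of 0) and lower (left of 0) in GO2 cells, for all named genes, for the receptors and for the 4 lists of partner genes, with the counts and the number tested in brackets. Ligands (8 and 6 of 33) had larger shares called in both directions than all named genes (790 and 521 of 13215). Receptors (5 and 1 of 21) had a larger share called higher. Their share called lower is 1 gene, Kit, and lies near that of all named genes (4.76% and 3.94%). Pdgfrb, Kit and Ptn were tested only through the line in which they are high.

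Receptors were then set beside their own ligands in the same cells, with pairs chosen after the values were seen. For Pdgfra and Pdgfrb, the shared ligand Pdgfb was at 3.21 and 3.24 in ID8G cells and at 1.94 and 2.01 in GO2 cells, a difference of -1.25 (adjusted p = 0.000657) opposite in direction to its receptors. Pdgfa differed by 0.52 and Pdgfc by -0.48, each under 2-fold, and Pdgfd was not well above background on any array. Ror1 and Wnt5a were both higher, and Wnt5a was at -1.59 and -1.52 in ID8G cells and at 0.92 and 1.09 in GO2 cells. For Kit, the ligand gene Kitl differed by -0.03 by its brightest probe and by up to -0.63 by another, none of them past 2-fold.

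Met had no detected ligand, since Hgf was not well above background on any array. For Axl and Tyro3, Gas6 was at 0.54 and 0.65 in ID8G cells and at 2.33 and 2.31 in GO2 cells (difference 1.73, adjusted p = 0.000429). Pros1, which encodes the Tyro3 ligand protein S, differed by 1.40. For Csf1r, whose own difference was not called, Csf1 was at 2.02 and 1.98 in ID8G cells and at 4.12 and 4.08 in GO2 cells (difference 2.11, adjusted p = 0.000248), while the alternative ligand Il34 fell from 1.07 and 1.08 to -0.30 and -0.25. Of the 6 Egfr ligands examined, Areg was called lower and Ereg (-0.75), Tgfa (-0.47, not well above background in GO2 cells), Btc (-0.35), Egf (-0.24) and Hbegf (0.20) were not called. For Ntrk2, Bdnf was higher by 1.08, and for Flt1, Vegfa differed by -0.43 and Vegfb by -0.25, both under 2-fold.

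**Figure D4:**
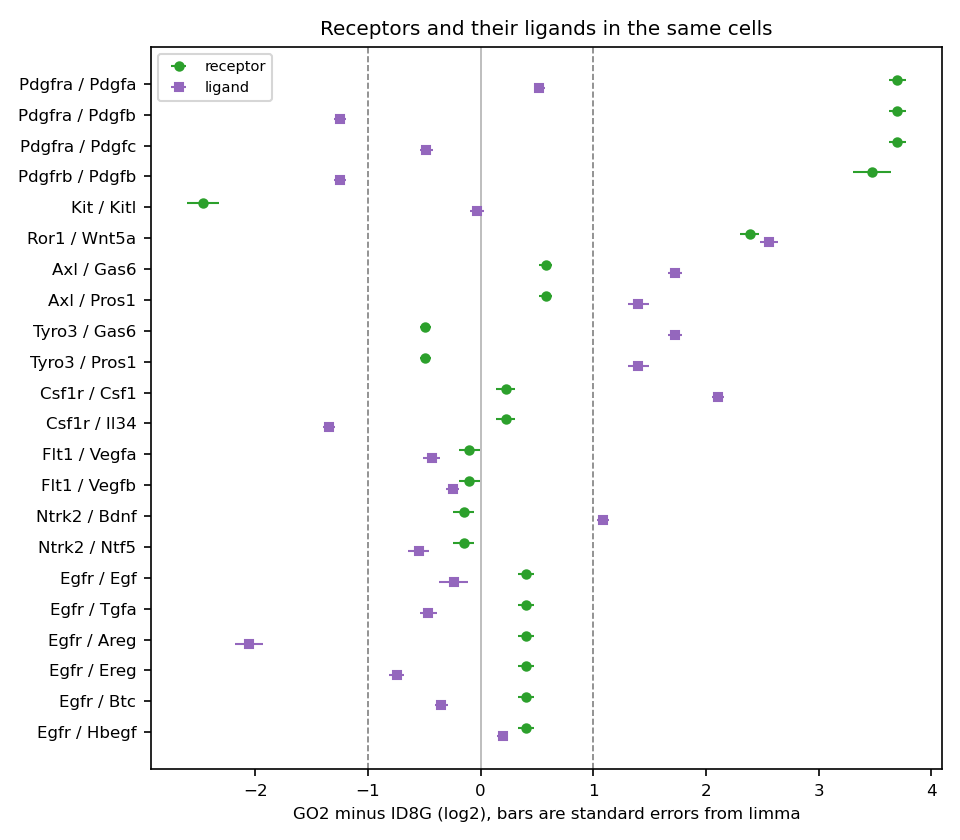
Difference between GO2 and ID8G cells (log2) of a receptor (circles) and of each of its tested ligands (squares), with standard errors from limma and dashed lines at the 2-fold threshold. Ror1 and Wnt5a lie together at 2.39 and 2.56, whereas Pdgfb (-1.25) lies on the other side of 0 from Pdgfra and Pdgfrb. Pros1 is drawn beside Axl as well as Tyro3, although protein S is a ligand of Tyro3 and Mertk.

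Some markers of mesenchymal cells were higher in GO2 cells, as the PDGF receptors were, and others were not. Of 8 fibroblast markers, 5 were tested and 3 were higher in GO2 cells, Col1a2 (7.49), Col1a1 (4.69) and Col3a1 (4.20), while Dcn was lower by less than 2-fold (-0.63, adjusted p = 0.00309), Pdpn was not called (0.09) and Fap, Lum and Thy1 were not well above background on any array. The summed level of this list was 107 to 108 on the ID8G arrays and 188 to 190 on the GO2 arrays, as multiples of the 75th percentile. Of 8 smooth muscle and pericyte markers, 4 were tested and 2 were higher, Cnn1 and Tagln. Acta2 depended on the probe, with a difference of 0.30 by its brightest probe and of 5.64 by another. Rgs5, Des and Myh11 were not well above background on any array. The summed level of that list was 53.7 to 55.2 in ID8G cells and 66.5 to 68.3 in GO2 cells. Summed mesothelial markers were 280 to 287 in ID8G cells and 151 to 154 in GO2 cells, but 111 to 121 and 97.9 to 100.4 without Krt19, and the median difference of this list was -0.07. Summed epithelial markers were 377 to 392 in ID8G cells and 231 to 232 in GO2 cells. Most of each epithelial sum came from Krt18, at 8.12 and 8.07 in ID8G cells and at 7.27 and 7.29 in GO2 cells. Krt19 (-1.65) was lower and Upk3b (1.08) higher among 6 mesothelial markers. limma called 0 of 3 tested epithelial markers, although all 3 were lower at an unadjusted p below 0.05. Krt18 (-0.81, limma adjusted p = 0.0016) and Krt8 (-0.55, adjusted p = 0.0044) missed only the 2-fold threshold, and Cdh1 (-0.34, adjusted p = 0.06) missed both. Of the other lists, Robo4 was lower among 3 tested endothelial markers and Fabp4 among 2 tested adipocyte markers. Both entered the fit only through ID8G cells, in which they are high. This leaves at least 5.29-fold for Robo4, and 6.28-fold and 1.79-fold for the probes of Fabp4. limma called 0 of 3 macrophage and 0 of 2 lymphocyte markers, with 1 and 0 lower at an unadjusted p below 0.05. The macrophage marker was Cd14, lower by less than 2-fold (-0.69, limma adjusted p = 0.0021). The part of other cells in the result was not tested, and in such bulk samples more cells of a type and more RNA per cell cannot be told apart.

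limma borrows its estimate of variance from all tested probes, and the adjusted p values depend on it, since 2 arrays against 2 cannot give a two-sided exact permutation p below 0.333. With the methods' t-test and the same adjustment 0 receptors were called, with adjusted p values of 0.122 to 0.174 for those called by limma, while 13 of the 21 tested receptors had an unadjusted p below 0.05, where limma gave 14.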

How the data were processed

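The authors deposited Agilent Feature Extraction 11.5.1.1 files with the intensity of each spot, background-subtracted but with no scaling across arrays, and marks for outlier, saturated and well-above-background spots. They also deposited log2 values, which match log2 intensities scaled to the 75th percentile of each array and centered on the median of each probe (99% of values within 0.0012). The medians of its columns are 0.10 and -0.05 for ID8G cells and 0.04 and -0.05 for GO2 cells. The paper's methods name GeneSpring GX but not its settings. This table served for 1 alternative, and 0 of its columns were left unused.

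Spots marked as outliers were left out, spots of a probe were averaged on the log2 scale, and the 75th percentile of the array, taken without control probes, was subtracted. For the 28368 probes that both arrays of at least 1 line measured well above background (for probes with several spots, on at least as many spots as not), limma 3.58.1 in R 4.3.3 was fitted with cell line as the only term, and p values were adjusted over all of them. Figures were drawn with matplotlib 3.10.9. The procedure was tested on simulated data. Where no array of a line was well above background, the lowest signal so marked on each array replaced any level beneath it, and the fold is a lower bound. Of 56605 probes, 32994 (58.3%) were named by accession through RefSeq genes of GRCm38.p6. The build of the probe design was not given in the sources used here, so only names and the order of genes were taken from that table. Promoter sequences and their coordinates are those of RefSeq on GRCm38.p6.

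The receptors, lists and tests were chosen with earlier results of these data known. Every receptor is accounted for. Of each partner list, at most the 3 largest increases and decreases among called genes are named under the lists, and genes of each marker list that were called. Ligands set beside receptors and neighbors of Pdgfra and Kit were chosen after their values were seen. The alternatives were normexp (offset 50, on the median pixel, as no mean is in the files), quantile normalization, median centering, spike-in scaling, other filters on dim probes, a floor, outlier spots kept, an intensity trend, the methods' t-test, the replicate block, the deposited log2 values, any probe of a gene, and each array left out. The slide as a block could not be used with 1 slide.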

Additional observations from a re-analysis of the deposited data

How the results depend on the processing

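Pdgfra, Pdgfrb, Ror1 and Met were called higher and Kit lower under every setting with limma in which they were tested, and Fgfr3 was not, as given above. For the tested receptor probes 492 values were compared, of which 480 kept their call or lack of one, 12 lost the call and 0 reversed it. Only the 6 probes called higher and the 1 called lower could lose a call, so most of these values belong to uncalled probes. A change of sign without a call, as for Insr, was counted as kept. The methods' t-test called 0 receptors higher and 0 lower, 0 partner genes higher and 0 lower, and 0 probes higher and 3 lower of all. For this t-test the cause was not tested. A filter that kept probes well above background in all 4 samples left 0 receptors lower, since Kit and Pdgfrb were then not tested, and gave 666 probes higher and 606 lower. Without the filter, 2 receptors were lower, Kit and Ltk. Normexp correction gave 818 probes higher and 517 lower, against 1277 and 947, and the cause was not tested. Spike-in scaling moved the median of all differences from -0.02 to -0.23 and gave 1434 probes lower, so that 43.5% of called probes were higher against 57.4%.

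Without 1 array in turn, 4 to 5 receptors were higher and 1 to 1 lower, 14 to 16 partner genes higher and 9 to 12 lower, and 1288 to 1628 probes higher and 913 to 1408 lower. The share of called probes that were higher was 47.8% without ID8G replicate 1 and 64.1% without GO2 replicate 1. Such fits assume that a single remaining array varies as the other line does. With the replicate number as a block, 5 receptors and 1251 probes were higher and 1 receptor and 936 probes lower. Replicate numbers did not pair the samples (correlation of replicate differences between the lines 0.03 across probes), and the block changed no call of a receptor. The limit is signal over background, which leaves 16 receptors without a level in either line.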
